A study of Homo sapiens with 4 samples.

Results

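The mRNAs of 8 selective autophagy receptors (SQSTM1, NBR1, OPTN, TAX1BP1, CALCOCO2, TOLLIP, WDFY3 and STBD1) were followed through 4 libraries. They were taken by gene symbol from 60676 listed Ensembl genes; each symbol named 1 gene, and all 8 passed the filter on low counts that left 15431 genes. The cells were U2OS, a human bone tumour (osteosarcoma) line in long-standing use, and the assay was native nuclear RIP (nRIP), in which RNA that stays with an antibody in an uncrosslinked nuclear lysate is recovered and sequenced. The groups were LC3B nRIP (antibody to LC3B), IgG nRIP (control IgG antibody), LC3B input and IgG input (both without antibody), and the labels give no treatment or genetic change. Each group was a single library, so the differences below have no replicate check and carry no p-values.

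Selective autophagy receptors hold a cargo with one part of the protein and an LC3 or GABARAP protein on the forming autophagosome membrane with another, so that the cargo is enclosed and degraded. SQSTM1, NBR1, OPTN, TAX1BP1, CALCOCO2 and TOLLIP carry ubiquitin-binding domains and recognise ubiquitin on aggregates, damaged mitochondria or bacteria. WDFY3 is a large scaffold that joins SQSTM1-containing aggregates to the autophagy machinery, and STBD1 binds glycogen rather than ubiquitin. LC3B, the protein targeted by the antibody, is encoded by MAP1LC3B. The assay measured RNA, and the values below say nothing about the receptor proteins.

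Total counts lay between 10000914 and 10886762 per library. Mitochondrial genes took 0.774% of the LC3B nRIP and 1.76% of the IgG nRIP, against 20.8% of the LC3B input and 22.8% of the IgG input, so levels are given as CPM, the count scaled to a fixed total of reads, taken here as a share of the total without mitochondrial genes, which was 10375786, 9824400, 8542486 and 8404123 in the same order. The IgG nRIP stood apart from the others: of the 15431 genes tested, 62 had 0 reads in the LC3B nRIP, 3043 (19.7%) in the IgG nRIP, 54 in LC3B input and 54 in IgG input. Of 10 bone-lineage markers, SPARC, COL1A1, RUNX2, ALPL and SPP1 were above 1 CPM in all 4 libraries, whereas SP7, IBSP and TWIST1 had 0 reads and BGLAP and COL1A2 had at most 3 reads in any library. Of 10 markers of other cell types, EPCAM was the highest at 15.0 to 25.8 CPM, and their summed level was 18.0 to 26.8 CPM, against 1740 to 3303 CPM for the bone-lineage markers.

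The 8 mRNAs fell into 2 groups between the nRIP libraries. SQSTM1, NBR1, OPTN and CALCOCO2 had higher CPM with LC3B than with IgG, and TAX1BP1, TOLLIP, WDFY3 and STBD1 had lower CPM. Each difference was larger than counting error, which here takes reads as independent. Values are shares of a bulk library of recovered RNA, so a fold between the nRIP libraries does not measure the level of an mRNA in the cells. A fold was called only where its whole 95% counting interval lay past 2-fold (lower bound at least 2, or upper bound at most 0.5). By that rule NBR1 and CALCOCO2 were higher and WDFY3 was lower with LC3B, 2 and 1 of 8. Of all genes tested, 33.8% were called higher and 9.45% lower in the same comparison, so the receptors' shares, 25% and 12.5%, lay near those of all genes. Their median log2 ratio was -0.062, against 0.41 over all genes tested. The median of the tested genes depended on abundance. It was -0.074 at a mean input of 100 CPM or more, the class of SQSTM1, OPTN and TAX1BP1. At 30 to 100 CPM, the class of NBR1 and CALCOCO2, it was 0.16. It was 0.56 at 10 to 30 CPM (TOLLIP and STBD1) and 1.64 at 1 to 10 CPM (WDFY3).

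**Figure D1:**
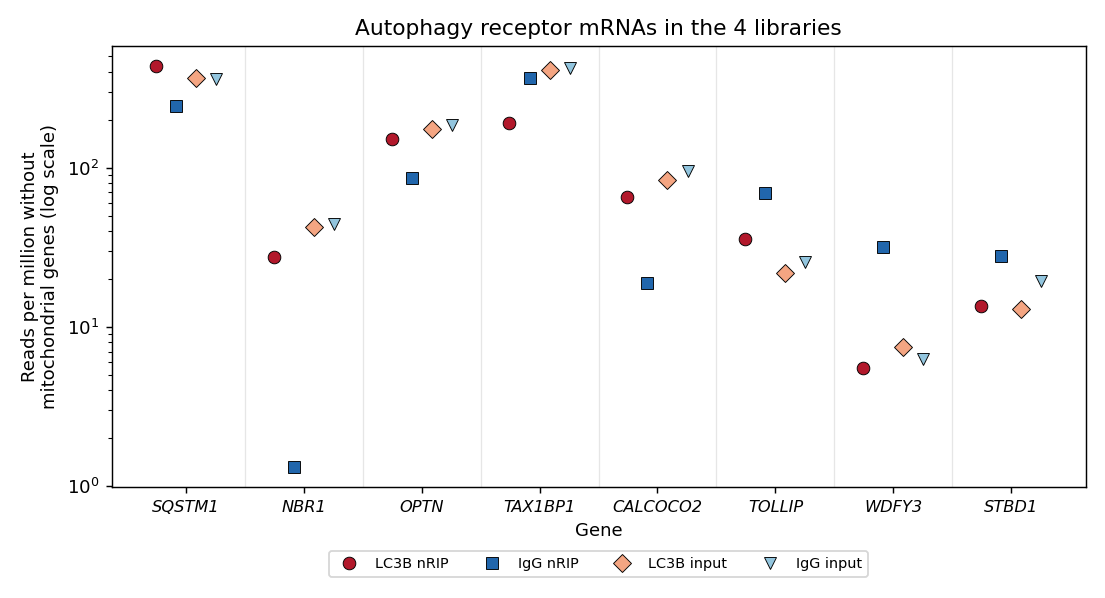
CPM without mitochondrial genes (vertical axis, log scale) for each receptor gene (horizontal axis) in the LC3B nRIP, IgG nRIP, LC3B input and IgG input, 1 point per library. The input points are furthest apart for STBD1, at 12.9 CPM in LC3B input and 19.3 CPM in IgG input, and the IgG nRIP stands furthest from the inputs for NBR1, at 1.32 CPM, and for WDFY3, at 31.7 CPM.

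SQSTM1 (ENSG00000161011, hg38 chromosome 5, 179806398 to 179838078, plus strand) encodes a self-assembling receptor that gathers ubiquitinated proteins into condensates. It had 4507 reads in LC3B nRIP, 2387 in IgG nRIP, 3105 in LC3B input and 3029 in IgG input. In CPM these were 434, 243, 363 and 360.4, so the LC3B nRIP was the highest library and the IgG nRIP the lowest. The fold of the LC3B over the IgG nRIP was 1.79 (95% counting interval 1.70 to 1.88), which was not called. Of the 2301 genes with a mean input level of 100 CPM or more, 85.9% had a smaller ratio. Against its own input SQSTM1 stood at 1.20 (1.14 to 1.25) with LC3B and at 0.674 (0.639 to 0.712) with IgG. On the log2 scale these distances from input were 0.26 with LC3B and -0.57 with IgG.

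NBR1 (ENSG00000188554, chromosome 17, 43170481 to 43211689, plus strand) encodes a receptor that works with SQSTM1 on ubiquitinated aggregates and also on peroxisomes. It had 285 reads in LC3B nRIP, 13 in IgG nRIP, 364 in LC3B input and 373 in IgG input, or 27.5, 1.32, 42.6 and 44.4 CPM. The IgG nRIP was far below the other 3 libraries. The fold of the LC3B over the IgG nRIP was 20.8 (11.9 to 39.5) and was called. NBR1 was nevertheless less abundant with LC3B than in the LC3B input, at 0.645 (0.550 to 0.755, uncalled). It fell in the IgG nRIP relative to the IgG input, to 0.0298 (0.0157 to 0.0516). Among 3580 genes with a mean input level of 30 to 100 CPM, 2 had 13 or fewer reads with LC3B and 198 did with IgG.

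The call for NBR1 depended on the unit. In the deposited TPM values (transcript shares, for which each count was first divided by a length), taken without mitochondrial genes, NBR1 stood at 6.45 in the LC3B nRIP and 3.29 in the IgG nRIP, a fold of 1.96. TPM folds carry no counting interval here, so they were called by point fold alone. By that rule NBR1 was not called. Its TPM fold of the IgG nRIP over the IgG input was 0.302, still lower but far nearer to 1 than in counts.

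OPTN (ENSG00000123240, chromosome 10, 13099449 to 13138308, plus strand) encodes optineurin, a receptor for ubiquitinated mitochondria and bacteria that is phosphorylated by the kinase TBK1. It had 1575 reads in LC3B nRIP, 848 in IgG nRIP, 1492 in LC3B input and 1547 in IgG input (152, 86.3, 175 and 184 CPM). As with NBR1, the IgG nRIP was the lowest library and both inputs were the highest. The fold between the nRIP libraries was 1.76 (1.62 to 1.91), close to that of SQSTM1 and uncalled. Over its own input OPTN stood at 0.869 (0.809 to 0.934) with LC3B and at 0.469 (0.431 to 0.510) with IgG, both uncalled. With mitochondrial genes kept in the totals the first of these turned to 1.09 (1.01 to 1.17).

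CALCOCO2 (ENSG00000136436, chromosome 17, 48830988 to 48866522, plus strand) encodes a receptor best known for the removal of bacteria and damaged mitochondria. It had 683 reads in LC3B nRIP, 185 in IgG nRIP, 717 in LC3B input and 796 in IgG input (65.8, 18.8, 83.9 and 94.7 CPM). Its order of libraries was the same as for OPTN, with a wider gap between the IgG nRIP and the rest. The fold of the LC3B over the IgG nRIP was 3.50 (2.97 to 4.13), called. CALCOCO2 fell in the IgG nRIP, to 0.199 (0.168 to 0.234) of the IgG input, and stood at 0.784 (0.705 to 0.872) over the LC3B input, uncalled. Of the 3580 genes at 30 to 100 CPM, 20.9% were called higher between the nRIP libraries.

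TAX1BP1 (ENSG00000106052, chromosome 7, 27739331 to 27844564, plus strand) encodes a relative of CALCOCO2 that acts on ubiquitinated aggregates and also restrains inflammatory signalling. It had 1980 reads in LC3B nRIP, 3592 in IgG nRIP, 3513 in LC3B input and 3530 in IgG input (191, 366, 411 and 420.03 CPM). Here the LC3B nRIP was the library that stood apart, below the other 3. TAX1BP1 was the only 1 of the 8 called against the LC3B input, where it fell to 0.464 (0.439 to 0.490); of all genes tested 4.48% were called lower and 1.4% higher in that comparison, and 10.3% were called lower among genes of at least 100 CPM. In the IgG nRIP over its input it stood at 0.870 (0.831 to 0.912), and between the nRIP libraries at 0.522 (0.494 to 0.552), both uncalled. With mitochondrial genes kept in the totals the fold over the LC3B input was 0.581 (0.550 to 0.614) and the call was lost, and that over the IgG input turned to 1.11 (1.06 to 1.16).

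SQSTM1 and TAX1BP1 were the most abundant receptor mRNAs per length, and their balance differed between libraries. The ratio of SQSTM1 to TAX1BP1 in TPM was 2.50 in the LC3B nRIP, against 0.955 in the IgG nRIP, 1.03 in LC3B input and 1.06 in IgG input. The 95% counting interval of the ratio was 2.37 to 2.64 in the LC3B nRIP and 1.01 to 1.11 in the IgG input, and it included 1 in the IgG nRIP and the LC3B input. This ratio does not depend on how the libraries are scaled, but it rests on the lengths behind TPM.

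TOLLIP (ENSG00000078902, chromosome 11, 1274371 to 1309654, minus strand) encodes an adaptor of Toll-like and interleukin receptors that also binds ubiquitin and LC3. It had 371 reads in LC3B nRIP, 676 in IgG nRIP, 187 in LC3B input and 216 in IgG input (35.8, 68.8, 21.9 and 25.7 CPM). Both nRIP libraries were above both inputs, the only such case among the 8. TOLLIP rose in the IgG nRIP, to 2.68 (2.29 to 3.14) times the IgG input, and stood at 1.63 (1.37 to 1.96) over the LC3B input, uncalled. The fold of the LC3B over the IgG nRIP was 0.520 (0.457 to 0.591), uncalled.

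WDFY3 (ENSG00000163625, chromosome 4, 84669610 to 84966391, minus strand), the aggregate scaffold, was the rarest of the 8 in reads outside the IgG nRIP. It had 57 reads in LC3B nRIP, 311 in IgG nRIP, 64 in LC3B input and 53 in IgG input (5.49, 31.7, 7.49 and 6.31 CPM). The IgG nRIP was far above the other 3 libraries, the reverse of NBR1. WDFY3 rose to 5.02 (3.74 to 6.85) times the IgG input in the IgG nRIP, and with LC3B relative to IgG it fell, to 0.174 (0.128 to 0.231). Over the LC3B input it stood at 0.733 (0.504 to 1.06), an interval that includes 1. Of the 5586 genes at 1 to 10 CPM of input, 3.76% had a smaller ratio between the nRIP libraries. The antisense gene WDFY3-AS2, which overlaps the WDFY3 start, had 10 reads in LC3B nRIP, 99 in IgG nRIP, 14 in LC3B input and 17 in IgG input. Since no strand setting is given in the sources used here, reads of the 2 genes may not have been separated.

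STBD1 (ENSG00000118804, chromosome 4, 76306026 to 76311599, plus strand), the glycogen receptor, had 140 reads in LC3B nRIP, 272 in IgG nRIP, 110 in LC3B input and 162 in IgG input (13.5, 27.7, 12.9 and 19.3 CPM). The IgG nRIP was again the highest. STBD1 stood at 0.487 (0.395 to 0.600) between the nRIP libraries, at 1.05 (0.810 to 1.36) over the LC3B input and at 1.44 (1.18 to 1.76) over the IgG input, and was called in none of these. It overlaps the read-through gene FAM47E-STBD1 on the same strand, which had 0 reads in both nRIP libraries, 40 in LC3B input and 3 in IgG input. With those reads added, STBD1 stood at 0.768 (0.606 to 0.974) over the LC3B input.

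**Figure D2:**
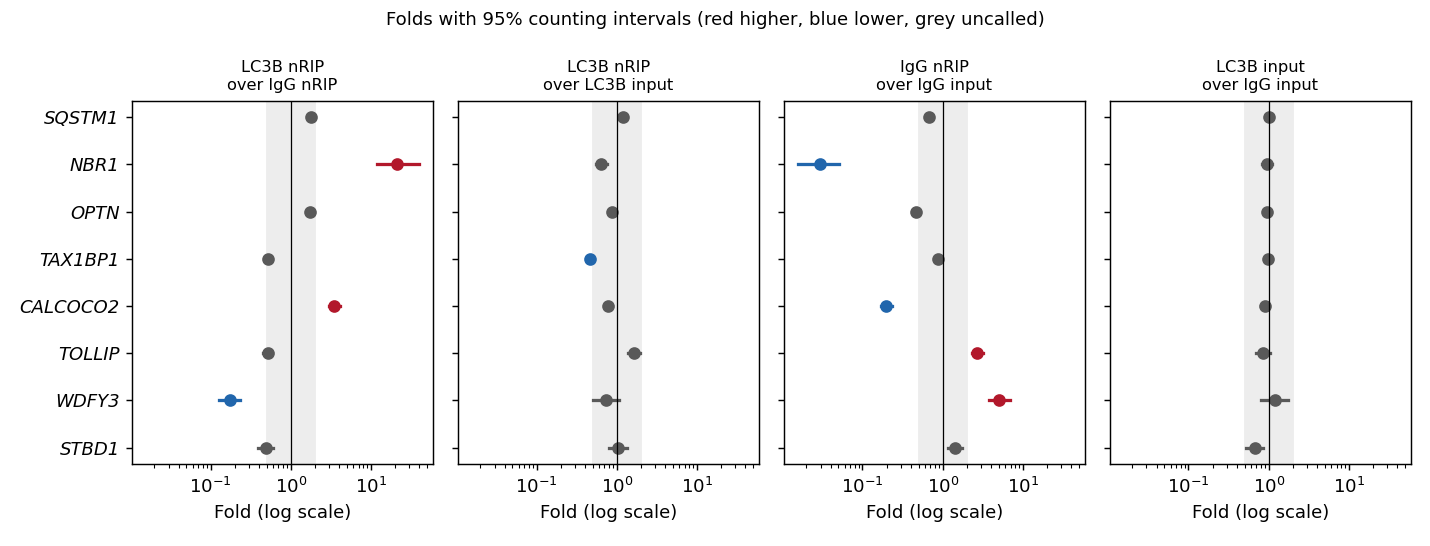
Fold (horizontal axis, log scale) of each receptor mRNA in 4 comparisons, with 95% counting intervals as bars; grey shading spans 0.5 to 2, red points were called higher, blue lower and grey uncalled. NBR1 and CALCOCO2 were called higher and WDFY3 lower with LC3B than with IgG, while only TAX1BP1 was called against the LC3B input and none between the inputs.

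Against the inputs, 0 of the 8 receptors were called higher and 1 lower with LC3B, where 1.4% and 4.48% of all genes tested were. There the counting interval lay wholly above 1 for 2 receptors (SQSTM1 and TOLLIP) and wholly below 1 for 4. With IgG 2 were called higher (TOLLIP, WDFY3) and 2 lower (NBR1, CALCOCO2). In the IgG nRIP over its input, 9.69% of all genes tested were called higher and 33.6% lower. The comparisons share libraries: the 3 genes called between the nRIP libraries are also called in the IgG nRIP over its input, and the IgG library enters both. The LC3B nRIP over its own input, which does not use the IgG nRIP, gave folds of 0.464 to 1.63 over the 8, with a median log2 ratio of -0.28 against 0.014 for all genes tested. In the IgG nRIP the folds over input ran from 0.0298 to 5.02, with a median log2 of -0.38 against -0.43 for all genes tested.

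Dividing the fold of the LC3B nRIP over its input by that of the IgG nRIP over its input gave the same calls as the nRIP libraries alone, with which it shares both nRIP libraries. NBR1 had a ratio of 20.9 (11.9 to 36.7), CALCOCO2 of 3.94 (3.25 to 4.77) and WDFY3 of 0.147 (0.0931 to 0.233). Of all genes tested 29.1% were called higher and 7.58% lower by this ratio. SQSTM1 stood at 1.77 (1.65 to 1.90), OPTN at 1.85 (1.66 to 2.07), TAX1BP1 at 0.533 (0.496 to 0.573), TOLLIP at 0.610 (0.483 to 0.770) and STBD1 at 0.730 (0.532 to 1.001), all uncalled.

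The inputs, from the same cell line without antibody, show how far libraries differ when no antibody was used. None of the 8 was called between the LC3B input and the IgG input, where 0.136% of all genes tested were called higher and 0.156% lower. SQSTM1 stood at 1.01 (0.959 to 1.06), TAX1BP1 at 0.979 (0.934 to 1.03) and OPTN at 0.949 (0.883 to 1.02). The furthest apart was STBD1 at 0.668 (0.520 to 0.856), which became 0.894 (0.712 to 1.12) with the read-through reads added. With 0.5 CPM added to each value, 95% of the genes of 100 CPM or more lay within 3.01-fold between the nRIP libraries and within 1.16-fold between the inputs. At 30 to 100 CPM the same limits were 22.5-fold between the nRIP libraries and 1.26-fold between the inputs. On that scale CALCOCO2 differed 3.43-fold and NBR1 15.3-fold between the nRIP libraries, both inside the limit for that class. At 10 to 30 CPM the limit between the inputs was 1.45-fold, and STBD1, at 0.676 on that scale, lay beyond it.

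**Figure D3:**
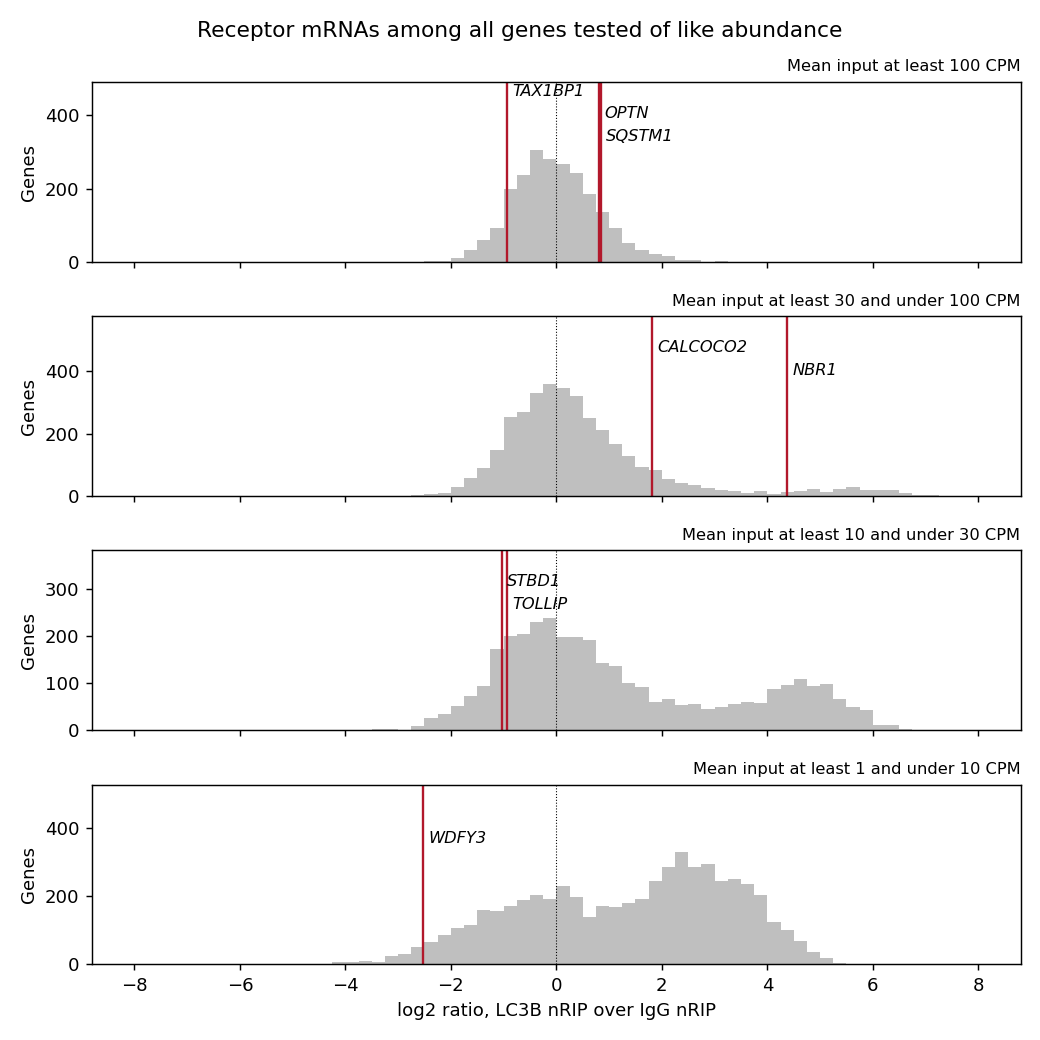
Number of genes tested (vertical axis) by log2 ratio of the LC3B over the IgG nRIP (horizontal axis, bins of 0.25), in 4 classes of mean input abundance, with red lines at the receptor mRNAs of each class. SQSTM1 and OPTN lie on the right flank and TAX1BP1 on the left flank of the most abundant class. The bins hold ratios with 0.5 CPM added, and the red lines show ratios without it. With 0.5 CPM added, NBR1 stood at 15.3-fold instead of 20.8-fold. On that scale NBR1 lies in a sparse stretch below a second group of genes with high ratios, which is larger in the less abundant classes.

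The share of genes called higher between the nRIP libraries depended on abundance. It was 8.56% at 100 CPM or more, 20.9% at 30 to 100 CPM, 37.4% at 10 to 30 CPM and 51.7% at 1 to 10 CPM. Genes called lower made up 8.1% of the 10 to 30 CPM class, which holds TOLLIP and STBD1, and 9.92% of the 1 to 10 CPM class, which holds WDFY3. The ratio also differed with transcript length. The median log2 ratio of the LC3B over the IgG nRIP was 0.11 for genes under 1 kb, 0.26 at 1 to 2 kb, 0.65 at 2 to 4 kb and 1.37 over 4 kb. NBR1 was the 1 receptor in the longest class. The part of abundance and length in the receptors' folds was not tested.

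Levels of different receptors can be compared per length, in TPM without mitochondrial genes. In the LC3B nRIP the order was SQSTM1 (193), TAX1BP1 (77.0), OPTN (61.8), CALCOCO2 (39.8), TOLLIP (30.2), NBR1 (6.45), STBD1 (4.16) and WDFY3 (1.35), and each neighbour in this order differed from the next by more than counting error. In the IgG nRIP TAX1BP1 (134) and SQSTM1 (128) led with a ratio whose counting interval included 1, TOLLIP (59.4) came before OPTN (31.8), WDFY3 (15.0) and CALCOCO2 (13.9) did not differ beyond counting error, and STBD1 (8.35) and NBR1 (3.29) were last. In both inputs the first 6 places were SQSTM1, TAX1BP1, OPTN, CALCOCO2, TOLLIP and NBR1, as in the LC3B nRIP. SQSTM1 had 185 TPM in LC3B input and 193 in IgG input. WDFY3 and STBD1 held the last places, at 5.11 and 4.27 TPM in the LC3B input, a difference within counting error, and at 2.61 and 6.31 TPM in the IgG input, a difference beyond it.

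The deposited counts and TPM together give the transcript length that was used for each gene in each library, an average over the isoforms to which reads were assigned. It was put in bases with the 13 protein-coding genes of the mitochondrial genome, which have no introns. For 357 genes with 1 listed transcript, the length did not differ by more than 1.2 times between any compared libraries. For 6680 genes with several transcripts, it differed by more than 1.2 times for 23.3% between the LC3B and IgG nRIP libraries and for 6.29% between the LC3B and IgG inputs. STBD1, with 1 listed transcript, gave 3435 bases in LC3B nRIP, 3435 in IgG nRIP, 3426 in LC3B input and 3432 in IgG input.

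NBR1, with 8 listed transcripts, gave 4452 bases in LC3B nRIP, 583 in IgG nRIP, 4514 in LC3B input and 4508 in IgG input. TPM divides by this length, so its 13 reads in the IgG nRIP count for more there than in the other libraries. WDFY3, with 12 listed transcripts, gave 4262, 2262, 1763 and 2759 bases in the same order and so differed even between the inputs. Its TPM fold over the LC3B input was 0.264, against 0.733 in counts, and its TPM fold between the nRIP libraries was 0.0903. CALCOCO2 was longest in LC3B nRIP, at 1843 bases against 1514 in IgG nRIP, 1558 in LC3B input and 1529 in IgG input. SQSTM1 gave 2444, 2052, 2301 and 2169 bases in the same order of libraries. OPTN gave 2647 bases in LC3B nRIP, 2850 in IgG nRIP, 2422 in LC3B input and 2431 in IgG input, and TAX1BP1 stayed between 2636 and 2868 bases.

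**Figure D4:**
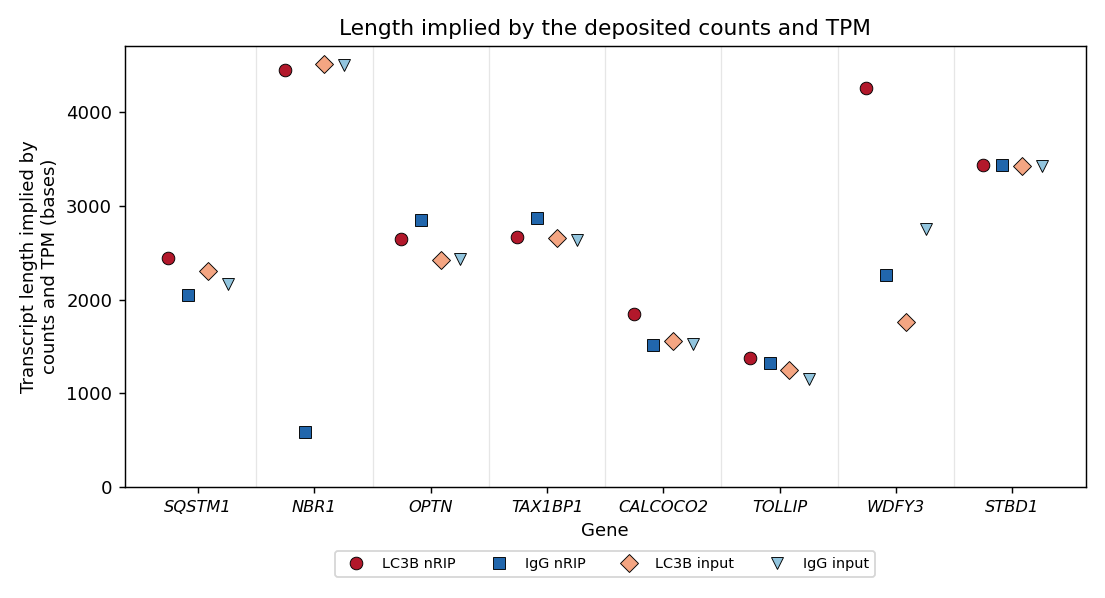
Transcript length in bases (vertical axis) implied by the deposited counts and TPM for each receptor gene (horizontal axis), 1 point per library. STBD1, with 1 listed transcript, stays at 3426 to 3435 bases, while NBR1 drops to 583 bases in the IgG nRIP and WDFY3 spreads from 1763 to 4262 bases.

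Neighbouring genes overlapped 6 of the receptors in the deposited coordinates, and CALCOCO2 and TOLLIP had none. SQSTM1 overlaps MRNIP and MGAT4B on the other strand. MRNIP had 1607 reads in LC3B nRIP, 898 in IgG nRIP, 1059 in LC3B input and 1041 in IgG input. The lncRNA AC060780.1, opposite the NBR1 start, had 88, 131, 52 and 42 reads in that order, so that its order of the nRIP libraries was the reverse of that of NBR1. Reads shared between overlapping genes could not be told apart here.

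The genes whose profile over the 4 libraries was closest were found among protein-coding genes of at least 30 CPM, by the largest difference in centred log2 CPM in any library. For SQSTM1 these were SYPL1 (largest difference 0.017), HNRNPK (0.033) and HYLS1 (0.034), with HNRNPK at 1481 CPM in LC3B nRIP, 861 in IgG nRIP, 1257 in LC3B input and 1237 in IgG input. BZW1 was closest to OPTN (0.017), PRKAA1 to TAX1BP1 (0.021), MVD to TOLLIP (0.046), NUS1 to CALCOCO2 (0.056), AC091230.1 to WDFY3 (0.083), TCHP to NBR1 (0.11) and HOMER2 to STBD1 (0.13). A profile of 4 libraries is matched by many genes, and these values describe likeness only.

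Among 7 ATG8-family genes, whose proteins the receptors bind, 6 were tested. MAP1LC3B had 1759 reads in LC3B nRIP, 2772 in IgG nRIP, 2169 in LC3B input and 2262 in IgG input, a fold between the nRIP libraries of 0.601 (0.566 to 0.638), uncalled. GABARAPL1, at 118, 50.6, 90.7 and 88.1 CPM in that order, was higher with LC3B than with IgG at 2.33 (2.10 to 2.60), and MAP1LC3C at 2.89 (2.29 to 3.68), so that 2 of 6 were called higher, against 33.8% of all genes tested. The input-corrected ratio of GABARAPL1 was 2.26 (1.96 to 2.62), which was not called. None of the 6 was called over the LC3B input, where 1.4% of all genes tested were called higher and 4.48% lower. MAP1LC3C was lower in the IgG nRIP than in its input at 0.303 (0.237 to 0.385). The list median of the LC3B over the IgG nRIP was 0.43, against 0.41 for all genes tested.

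Kinases and adaptors around the receptors numbered 12, all tested. With LC3B relative to IgG 3 rose and 2 fell (33.8% and 9.45% of all genes tested), and the list median (log2) was 0.41. TANK, an adaptor of TBK1, had 85.4 CPM in the LC3B nRIP, 18.5 in the IgG nRIP, 66.7 in LC3B input and 72.0 in IgG input, a fold of 4.61 (3.93 to 5.44) between the nRIP libraries. TBK1, the kinase that phosphorylates OPTN and SQSTM1, was below input in both nRIP libraries, at 0.281 (0.243 to 0.324) with LC3B and 0.390 (0.343 to 0.443) with IgG. RB1CC1, the scaffold of the ULK1 complex to which several receptors bind, was too, at 0.321 (0.280 to 0.367) with LC3B and 0.363 (0.317 to 0.414) with IgG. They were the 2 of 12 called lower over the LC3B input, and 0 were called higher, where 4.48% and 1.4% of all genes tested were. In the IgG nRIP 6 of 12 were lower than input and 1 was higher, where 33.6% and 9.69% of all genes tested were. MYO6, a motor bound by OPTN and CALCOCO2, stood at 2.31 (1.87 to 2.86) between the nRIP libraries, uncalled.

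Of 15 ubiquitin genes and ligases 14 were tested, and 3 were higher and 1 lower with LC3B than with IgG, against 33.8% and 9.45% of all genes tested. The list median was -0.056 (log2), against 0.41 for all genes tested. RPS27A, a ubiquitin and ribosomal protein fusion gene, had 808 CPM in LC3B nRIP, 377 in IgG nRIP, 569.9 in LC3B input and 554 in IgG input, a fold of 2.15 (2.06 to 2.23) between the nRIP libraries, and its input-corrected ratio of 2.09 (1.97 to 2.21) was not called. Reads of this gene and of its pseudogene copies may not have been separated. RNF213, a very large ligase, had 13.6, 52.3, 13.5 and 14.9 CPM in that order, a fold of 0.260 (0.214 to 0.314). RBCK1, a subunit of the linear ubiquitin ligase, was the 1 gene of this list called over the LC3B input, at 2.52 (2.19 to 2.90). Of all genes tested 1.4% were called higher and 4.48% lower there. The LC3B nRIP of RBCK1 set over the IgG input instead gave 1.94 (1.71 to 2.21), which was not called. LRSAM1, a ligase for bacterial cargo, was higher in the IgG nRIP than in its input at 4.16 (3.26 to 5.36).

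Among 10 other cargo receptors and related genes, 1 was higher and 1 lower with LC3B than with IgG, where 33.8% and 9.45% of all genes tested were. CALCOCO1, a relative of CALCOCO2 that acts on the endoplasmic reticulum and Golgi, had 394 reads in LC3B nRIP, 57 in IgG nRIP, 277 in LC3B input and 249 in IgG input, a fold of 6.54 (4.95 to 8.80) between the nRIP libraries and of 1.17 (1.002 to 1.37) over the LC3B input. TECPR1, a tethering factor, was lower with LC3B than with IgG at 0.252 (0.174 to 0.360), a call that was lost in the input-corrected ratio, at 0.294 (0.151 to 0.571). CCT2, a chaperonin subunit described as an aggregate receptor, was lower than input with IgG at 0.319 (0.305 to 0.335) and stood at 0.593 (0.571 to 0.615) with LC3B. None of the 10 was called over the LC3B input, where 1.4% of all genes tested were called higher and 4.48% lower.

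Of 11 glycogen genes around STBD1, all tested, 7 were higher and 1 lower with LC3B than with IgG (33.8% and 9.45% of all genes tested), and the median log2 was 1.71, against 0.41 for all genes tested. PYGL, a glycogen phosphorylase, stood at 3.32 (2.84 to 3.89) and GAA, the lysosomal glucosidase, at 2.76 (2.25 to 3.40), whereas PYGB, another phosphorylase, was lower at 0.343 (0.291 to 0.402). GAA had 25.6 CPM in LC3B input and 16.3 CPM in IgG input, and its input-corrected ratio was 1.75 (1.31 to 2.35), not called. None was called over the LC3B input, where the median was -0.74 and 1.4% of all genes tested were called higher and 4.48% lower. With IgG 6 of 11 were lower than input, where the median was -2.27 and 33.6% of all genes tested were called lower. These medians were not adjusted for abundance or length.

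Of 8 TOLLIP partners 7 were tested, and 3 were higher and 0 lower with LC3B than with IgG, where 33.8% and 9.45% of all genes tested were called. CLTC, the clathrin heavy chain, stood at 2.87 (2.53 to 3.27) and MYD88, the Toll-like receptor adaptor, at 9.54 (6.46 to 14.6). TOM1L2, an endosomal sorting protein, had 99 reads in the LC3B nRIP and 0 in the IgG nRIP, at least 31.2-fold higher with LC3B when the IgG nRIP is set to 3 reads. HGS, another endosomal sorting protein, was higher in the IgG nRIP than in its input at 2.72 (2.41 to 3.08), but was not called over the other input, at 2.23 (1.99 to 2.49).

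Relatives of WDFY3 with a BEACH or FYVE domain numbered 10, of which 8 were tested, and 3 were higher and 1 lower with LC3B than with IgG, shares near the 33.8% and 9.45% of all genes tested. WDR81, which acts in aggregate clearance, had 49 reads in LC3B nRIP, 342 in IgG nRIP, 60 in LC3B input and 42 in IgG input, a fold of 0.136 (0.0984 to 0.183), next to 0.174 for WDFY3. WDFY2 was higher in the IgG nRIP than in its input at 3.45 (2.61 to 4.62), but its LC3B input was 1.83-fold (1.33 to 2.52) its IgG input, and over the other input the fold was 1.89 (1.51 to 2.37), not called. NBEAL1 stood at 6.86 (3.74 to 13.8) with LC3B over IgG. LRBA had 60 reads in the LC3B nRIP and 0 in the IgG nRIP, at least 18.9-fold higher.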

How the data were processed

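The 4 libraries were made with the SMART-Seq v4 low-input kit after native nuclear immunoprecipitation, per the labels' protocols. The deposited tables hold raw read counts and TPM per Ensembl gene, per the file headers. The authors scaled TPM within each library, with unstated lengths. The tools named in the submitters' processing notes are cutadapt 2.8 and STAR 2.7.1a, and the build is hg38. How reads were counted (tool, annotation, strand, duplicates) is not given in the sources used here.

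Commas that group digits were removed, after which all counts were whole. Counts were divided by each library's total without mitochondrial genes, and genes averaging at least 1 CPM were kept. Folds have exact conditional binomial (Clopper-Pearson) 95% intervals, and the input-corrected ratio, after adding 0.5 reads throughout, a log-normal one. Intervals cover the counting error of reads only. They take each read as independent, which PCR reads without molecular identifiers are not, so they can be too narrow for molecules. In medians over lists or all genes, in the spread limits and in the histogram bins 0.5 CPM was added. A gene with 0 reads was set to 3 for a bound. Length is counts over TPM, on a scale fitted to mitochondrial protein-coding genes. Python 3.11.15, numpy 2.4.6, pandas 2.3.3 and scipy 1.17.1 were used, and the interval code was tested on simulated data. The members and lists were chosen with earlier results of these data known. Beside the 8 members, the called genes of each list were named, at most 4 per list by mean CPM, and the closest profiles; 1 gene that this rule names is not reported here. No protein or transcript sequence was used here. Alternatives were other scalings, bounds, filters, inputs, thinning, pseudocounts and TPM.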

Additional observations from a re-analysis of the deposited data

How the results depend on the processing

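Across 448 recomputed folds of the 8 receptors, 394 kept their first result, called or uncalled (10 of them outside their first interval). Another 7 lost the call, 15 gained one and 32 shifted beyond their interval without a call, and no called fold changed sign. Most folds had no call to lose. At first 5 of the 8 receptors were uncalled between the nRIP libraries, 7 over the LC3B input and 4 with IgG over input. Between the inputs 8 were uncalled, and 5 by the input-corrected ratio. Deposited TPM folds have no counting interval, so in that setting the rule of the call changed along with the unit. Of the counts of receptors called, those of the LC3B over the IgG nRIP were 2 higher and 1 lower. They became 1 higher and 2 lower in deposited TPM, and 1 higher with bounds of 4 and 0.25. With bounds of 1.5 and its inverse they became 4 higher and 4 lower, and by point fold 2 lower. STBD1 gained its lower call both in deposited TPM and by point fold in counts. Over the LC3B input, the 1 lower call became 0 with mitochondrial genes in the total and with bounds of 4 and 0.25, and 2 in deposited TPM. With IgG over input, the 2 higher calls became 0 with bounds of 4 and 0.25, and the 2 lower calls became 3, with OPTN, in deposited TPM, with bounds of 1.5 and by point fold. The input-corrected ratio gave 1 higher call with bounds of 4 and 0.25, and 4 higher and 2 lower with bounds of 1.5. Keeping mitochondrial genes in the totals raised every gene by 0.32 (log2) over the LC3B input and by 0.35 over the IgG input, and TMM scaling shifted every gene by -0.14 and median-of-ratios scaling by -0.12 in the LC3B over the IgG nRIP. Thinning and the pseudocounts changed no call, nor did TMM or median-of-ratios scaling. Neither filter could change a receptor's fold, since all 8 passed both (lowest mean 12.7 CPM, for WDFY3). The 40 unchanged results under each filter, called or uncalled, were therefore fixed beforehand. The other input turned STBD1 over input with LC3B to 0.700 (0.554 to 0.883). Adding the read-through reads to STBD1, and the other input for the list genes, were chosen after seeing the data. The causes of these shifts were not tested. No paired analysis was possible because each group holds 1 library. WDFY3 had only 53 to 64 reads in 3 libraries.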
